A study of Mus musculus with 2 samples.

Results

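The genes for 4 surface proteins of blood and vessel cells were followed on tiling arrays of DNA methylation: Ptprc (CD45), Itga2b (CD41), Pecam1 (CD31) and Kit (c-Kit). They are the proteins by which cells were removed before culture. A probe was assigned to a gene when its start in the mm9 build lay in a window around that gene, from 139956 to 140075 kb of chromosome 1 for Ptprc, 102312 to 102334 kb of chromosome 11 for Itga2b, 106512 to 106615 kb of chromosome 11 for Pecam1 and 75967 to 76056 kb of chromosome 5 for Kit. The windows are positions only, and no measured value is part of the rule. It gave 37 of the 174638 genomic probes on the array: 9 for Ptprc, 8 for Itga2b, 13 for Pecam1 and 7 for Kit.

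The study compared mouse embryonic fibroblasts (MEFs), connective tissue cells grown from C57BL/6 embryos at E14.5, with and without thymidine, a nucleoside that cells build into DNA. In both groups cells bearing CD45, CD31, CD41 or c-Kit had been taken out with magnetic beads, and the remaining cells (called 4neg) were seeded on feeder MEFs whose growth had been stopped with mitomycin. The untreated group stayed in plain medium with serum, and the treated group had 100 µM thymidine for 2 days. Sorting by CD45 is named for the treated sample only, in its source label, while its input DNA is described by one label as MEFs and by another as thymidine-treated. The labels do not say whether DNA of the feeder cells was part of the sample, and neither the sort nor the input's origin can be told apart from the treatment.

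Each group had 1 array, hybridised with DNA precipitated by an antibody against 5-methylcytosine (Cy5) and with input DNA (Cy3), a design known as MeDIP-chip. Values are log2 ratios of precipitate to input, centred on the median of each array, so 0 is the ratio of the median probe and 1 is a ratio doubled. With 1 array a group there were no replicates to set a difference against, so comparisons are given without tests and describe these arrays. DNA methylation says nothing directly about RNA, so the labelled cell type could not be checked against its markers.

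CD45 is a receptor-type tyrosine phosphatase present on nearly all nucleated blood cells. CD41 is the alpha IIb chain of the fibrinogen receptor of platelets and megakaryocytes, and it also marks the first blood-forming cells of the embryo. CD31 is an adhesion molecule of endothelial cell junctions, platelets and leukocytes, and c-Kit is the receptor tyrosine kinase for stem cell factor on blood stem cells, mast cells, melanocytes and germ cells. Methylation of cytosine in CpG pairs near a gene's start commonly goes with a silent gene, and the antibody takes up more DNA where methylated CpGs are dense, so the ratio at a CpG-poor start and at a CpG-rich one cannot be read on the same scale. Percentiles of ratios among all probes or blocks are therefore places on the array, not an order of methylation between genes.

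The stretches of 250 bases before the RefSeq starts show how unlike these genes are in CpG pairs. They are shown because that density sets what the antibody can take up. RefSeq sequences were at hand for 3 of the 4 genes, from the GRCm38.p6 build, which is not the build of the probes, so probes could not be placed on them. CpG pairs are in capitals, and each line reads 5′ to 3′ along the gene.
Ptprc: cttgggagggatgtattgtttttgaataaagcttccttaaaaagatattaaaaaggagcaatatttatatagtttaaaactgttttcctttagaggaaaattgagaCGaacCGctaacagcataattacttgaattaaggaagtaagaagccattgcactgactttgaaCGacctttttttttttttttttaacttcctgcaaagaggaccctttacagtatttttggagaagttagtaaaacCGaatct
Itga2b: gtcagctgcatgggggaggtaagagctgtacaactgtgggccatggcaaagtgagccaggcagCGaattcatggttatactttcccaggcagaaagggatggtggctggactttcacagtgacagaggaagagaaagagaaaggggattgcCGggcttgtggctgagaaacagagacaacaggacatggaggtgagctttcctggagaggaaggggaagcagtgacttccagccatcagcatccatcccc
Kit: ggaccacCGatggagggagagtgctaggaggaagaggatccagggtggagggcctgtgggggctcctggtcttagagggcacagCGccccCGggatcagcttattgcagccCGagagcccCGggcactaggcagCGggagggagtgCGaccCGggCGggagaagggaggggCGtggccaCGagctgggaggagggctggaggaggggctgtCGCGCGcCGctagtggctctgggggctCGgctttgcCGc
The Ptprc stretch is chr1:138175306-138175555 on the minus strand and holds 4 CpG pairs at a GC content of 31.6%. The Itga2b stretch is chr11:102469884-102470133 on the minus strand, with 2 CpG pairs at 54.0% GC. The Kit stretch is chr5:75574737-75574986 on the plus strand, with 17 CpG pairs at 70.8% GC. Over the first listed start of each of 27025 genes the median was 6 CpG pairs, with quartiles of 2 and 16. Kit was thus above the upper quartile, Itga2b at the lower one and Ptprc between the lower quartile and the median. RefSeq lists a further start for Ptprc and for Kit, with 2 and 18 CpG pairs in the 250 bases before it. These stretches overlap the printed ones, so some pairs are counted in both. The motif GATAAG, the core bound by GATA factors of blood, was in none of the 3 printed stretches on either strand, but occurred 1 time before the further start of Ptprc. It was in 6.60% of all promoters. GGAAGT, a form of the site of ETS factors, occurred 2 times in the printed stretch of Ptprc and 1 time for Itga2b. It was at neither start of Kit, and 20.0% of promoters had a match. The stretch before the further start of Ptprc held 1 match, which lies in the overlap and is among the 2 printed. A match or its absence in this window is a description of letters only.

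The array measured a short stretch of each gene. The 37 probes formed 5 of the array's 22170 tiled blocks, where a block holds neighbouring probes spaced by under 1000 bp from start to start. The Ptprc block ran from 140071227 to 140073066, and covered 1.55% of its window. The Itga2b block ran from 102330713 to 102332402 and covered 7.68%, and the Kit block ran from 75969712 to 75971329 and covered 1.82%. For these 3 genes the block lay near the window edge on the side where transcription begins, given the strand in RefSeq: it ended 1.93 kb from that edge for Ptprc and 1.60 kb for Itga2b, and began 2.71 kb from it for Kit. Pecam1 had 2 blocks, a lower one from 106576099 to 106577764 and an upper one from 106611370 to 106613003. These lay 64.1 and 99.4 kb from the low edge of the window. From the high edge the lower block ended 37.2 kb away and the upper one 2.00 kb away. No RefSeq stretch was at hand for Pecam1, so the side of its start is not given. No annotation of mm9 was used here, so whether probes lie in exons, introns or UTRs is not given.

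Signals were dim at some of these probes. Probes were kept when both arrays showed input signal well above background without an outlier flag, which held for 32 of the 37 and for 142569 probes (81.6%) of the array. The 5 probes that failed were 3 of Ptprc, 1 of Pecam1 and 1 of Kit. Of the 32, 26 were also well above background in the precipitate on both arrays, and 3 on neither (1 of Ptprc and 2 of the upper Pecam1 block). Ptprc rested on the weakest signals, with median raw inputs of 64.0 (untreated) and 62.0 (treated), against 147 and 241 at Itga2b and array medians of 103 and 125. Only 3 of its probes were measured in both channels on both arrays. As a yardstick of error, replicate spots of 54 control probes varied by a median SD of 0.08 (untreated array), 0.10 (treated array) and 0.13 (difference of the arrays), a measure of spots and not of cultures. The mean difference of these control probes between the arrays ranged from -0.73 to 0.62.

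**Figure D1:**
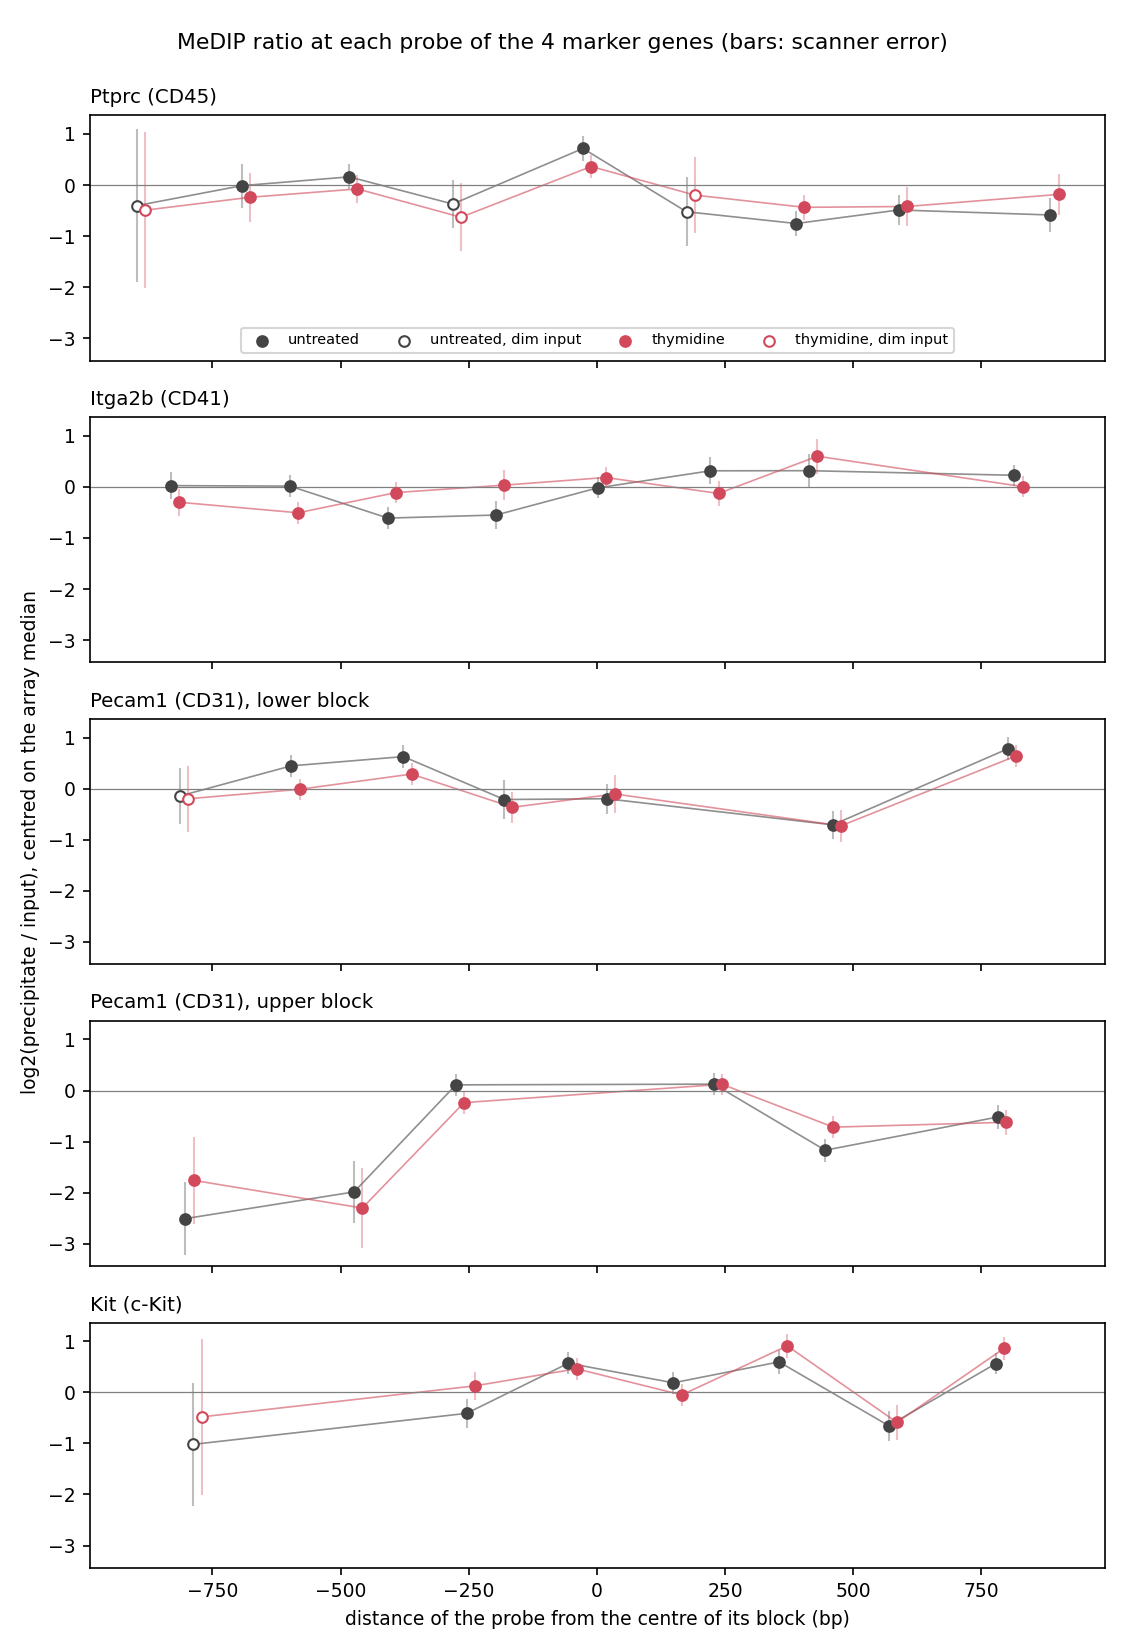
Log2 ratio of precipitate to input (vertical axis, centred on the array median) at each probe against its distance in bp from the centre of its block, for untreated (grey) and thymidine-treated (red) cells, with the scanner software's error as bars and open symbols where the input was dim. Kit has most probes above 0, the left end of the upper Pecam1 block falls to about -2, and red and grey error bars overlap at most probes. At 10 of the 32 kept probes the difference of the arrays was larger than its scanner error, against 27.8% of all kept probes.

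Ratios at Kit were mostly above that of the median probe. Its 6 kept probes had a median of 0.37 in untreated cells (range -0.65 to 0.60) and 0.29 in treated cells (-0.59 to 0.91), and 4 of 6 were above 0 on each array. Among the 21518 blocks of the array with at least 3 kept probes, the medians stood at percentile 86.3 and 80.2. In order of position, the untreated ratios were -0.41, 0.57, 0.19, 0.60, -0.65 and 0.56, and the treated ratios 0.13, 0.46, -0.05, 0.91, -0.59 and 0.86. Steps up and down alternated along the block in the same order on both arrays. The probe at 75971076 was the lowest of the kept ones on both.

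Itga2b lay at the level of the median probe. Its 8 probes, all measured in both channels, had a median of 0.02 in untreated (range -0.61 to 0.32) and -0.05 in treated cells (-0.51 to 0.60), at percentiles 51.8 and 43.3 of all blocks. The SD over probes was 0.36 and 0.33. A smaller SD was found in 6.17% of untreated and 5.35% of treated blocks, so this was an even stretch for the array. It was not the only one of the 4 genes: the kept probes of Ptprc had an SD of 0.29 on the treated array (percentile 3.47), though 0.55 on the untreated one. On each side the 2 nearest blocks with at least 3 kept probes lay 20.8 to 108 kb away. All 4 had higher medians, from 0.19 to 0.58 in untreated and 0.48 to 0.71 in treated cells. In RefSeq the coding genes on either side of Itga2b are Fam171a2 and Gpatch8, and which of these blocks belong to them was not determined.

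At Ptprc the level depended on which probes were counted. Its 6 kept probes had a median of -0.25 in untreated (range -0.75 to 0.72) and -0.21 in treated cells (-0.44 to 0.36), at percentiles 26.6 and 27.3. Over the 3 of them measured in both channels on both arrays, the medians were 0.16 and -0.08. All probes of the array so measured had medians of 0.15 and 0.14, so these values are to be read against those. The probe at 140072098, near the middle of the block, was the highest on both arrays, at 0.72 and 0.36. The 3 kept probes on its higher side were all negative, at -0.75, -0.49 and -0.59 in untreated and -0.44, -0.42 and -0.18 in treated cells. Loess normalisation turned the sign of the level of Ptprc, with a mean of the medians of both arrays of 0.10 in place of -0.23. The nearest other blocks with at least 3 kept probes lay 96.3 kb away on one side and 1213 kb on the other. Blocks with fewer kept probes were not looked for, so how densely the stretch is tiled is not given. Medians of these nearest blocks, with those of the next on each side, ranged from -0.55 to 0.35 in untreated and -0.50 to 0.28 in treated cells.

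Pecam1 was measured in a pair of separate blocks. The lower block had a median of 0.13 in untreated (range -0.71 to 0.78) and -0.06 in treated cells (-0.73 to 0.64). The upper block had -0.84 (-2.51 to 0.12) and -0.67 (-2.30 to 0.12). That put the lower block at percentiles 63.2 and 42.8 of all blocks and the upper one at 6.49 and 7.12. The ranges of the probes overlapped. In the upper block the ratios were -2.51, -1.99, 0.11, 0.12, -1.17 and -0.52 in untreated cells and -1.76, -2.30, -0.24, 0.12, -0.72 and -0.62 in treated cells. The first pair, from 106611370 to 106611748, was not well above background in the precipitate on either array, so these ratios are uncertain in size. Over the 4 probes measured in both channels the medians were -0.20 and -0.43, so the depth of the upper block rests in part on this pair. All probes of the array measured in both channels had medians of 0.15 and 0.14. In the next block beyond it with at least 3 kept probes, 27.3 kb away, medians were also low, at -0.66 and -0.86. The one after that, 36.3 kb away, had 0.92 and 0.94.

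Ratios of -1 or less were found at 3 of the 32 kept probes in untreated cells, where 15.0% of all kept probes had one, and at 2 of 32 in treated cells, against 11.3%. All 5 values were in the upper Pecam1 block. All but the -1.17 in untreated cells came from its first pair of probes, whose precipitate was not well above background on either array. No probe of the 4 genes reached a ratio of 1 on either array, where 7.17% of the untreated and 7.60% of the treated array's probes did.

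**Figure D2:**
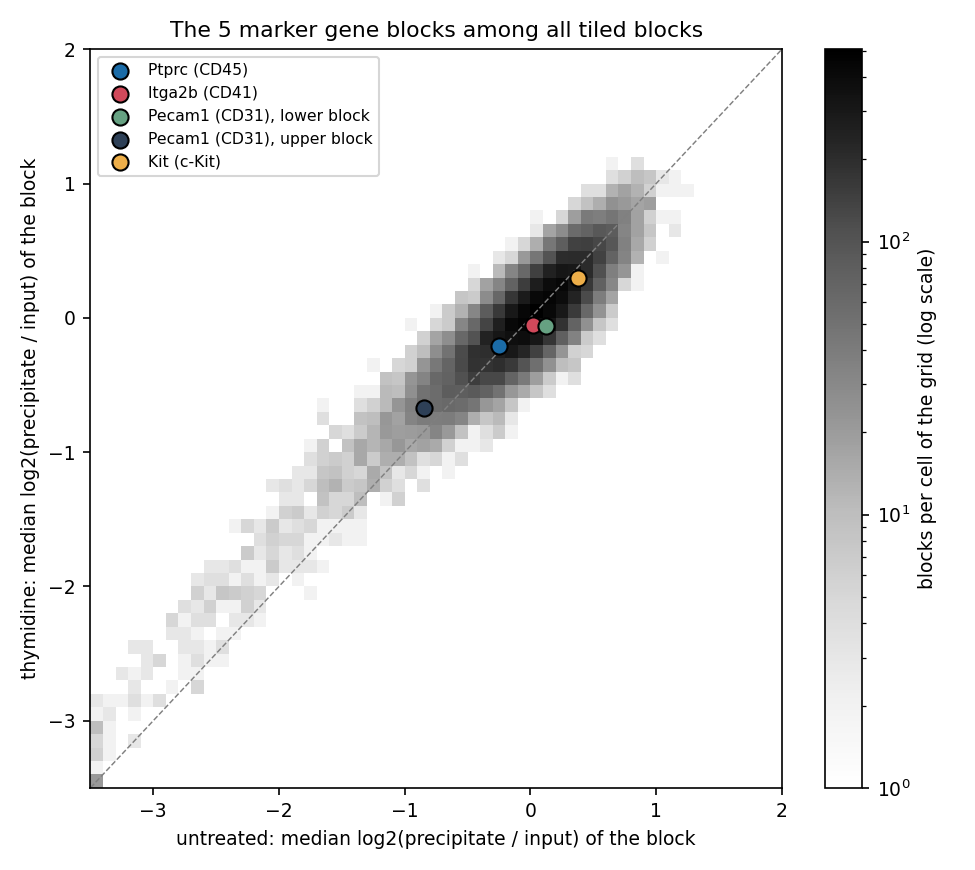
Median log2 ratio of each tiled block in thymidine-treated (vertical) against untreated cells (horizontal), with all 21518 blocks as a grid shaded by their number on a log scale (values below -3.5 are drawn at -3.5) and the marker gene blocks as coloured points. Each coloured point lies inside the cloud and near the dashed line of equality, with the upper Pecam1 block at -0.84 and -0.67 and Kit at 0.37 and 0.29.

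The comparison the design implies is whether the ratio at these genes differed after thymidine. The median difference, treated minus untreated, was 0.18 at Kit (SD over 6 probes 0.29), -0.01 at Itga2b (SD over 8 probes 0.44), -0.08 at Ptprc (SD over 6 probes 0.32) and -0.12 at Pecam1 (SD over 12 probes 0.35). The medians of the 5 blocks, from -0.15 to 0.18, lay between the 5th and 95th percentiles of the median differences of all blocks, -0.21 and 0.35. The scanner software's error of a single probe's difference had a median of 0.32 to 0.43 for the 4 genes. Of the 32 kept probes 14 were higher and 18 lower, and their median difference was -0.06. Over all kept probes of the array 57.5% were higher, with a median of 0.07, so the value of 0 is not the centre of the array.

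No probe of the 4 genes met any of the size rules used for the array. A difference of 1 or more, which doubles the ratio, was found at 0 of 32, against 1.07% of all kept probes, and one of -1 or less at 0 of 32, against 0.0926%. Differences of more than 2 scanner errors were found at 0 of 32 in either direction, against 1.83% higher and 1.12% lower over the array. None of the 5 blocks had a median difference of 0.5 or more in size with 80% of its probes sharing the sign, where 0.706% of blocks were counted higher and 0.0558% lower. With backgrounds this low, 32 probes or 5 blocks without a call do not set these genes apart from the array. The counts of 0 at probes held under all 11 alternatives in which probes were counted.

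Kit was the only block of the 5 with a positive median difference, where 65.1% of blocks of the array had one. Its kept probes differed by 0.54, -0.11, -0.24, 0.31, 0.06 and 0.30 in order of position, so 4 were higher and 2 lower after thymidine. The difference stood at percentile 76.2 of all blocks, and it was 0.09 once the array's trend with ratio level was taken off. The authors' deposited table, made from these same hybridisations, gave 0.04. The precipitate signal alone differed by 0.03, and the input by -0.15, so the input differed by more than the precipitate. The median of the treated array was still the lower one, at 0.29 against 0.37, because the median of the probe differences and the difference of the medians are not the same quantity. On each side the 2 nearest blocks with at least 3 kept probes, 403 to 597 kb away, had median differences of 0.00 to 0.35. In RefSeq the coding neighbours of Kit are the receptor genes Pdgfra and Kdr, and these blocks were not assigned to them.

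Pecam1 was lower after thymidine at 9 of 12 kept probes and higher at 3, where 57.5% of all kept probes of the array were higher. None of the 12 differed by more than 2 scanner errors, and probes of a block share fragments. In the lower block the differences were -0.46, -0.34, -0.15, 0.09, -0.02 and -0.14, with a median of -0.15 (percentile 10.3 of all blocks). Its input signal differed by 0.30, higher than in 98.5% of blocks, while its precipitate differed by -0.07. In the upper block the differences were 0.75, -0.32, -0.35, -0.00, 0.45 and -0.11, with a median of -0.05. The largest of them, 0.75 at 106611370, was the highest of all 32 probes. It belonged to the pair without a measured precipitate, and its scanner error was 1.11. Without that pair the median of the upper block was also -0.05.

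At Itga2b, even in level, single probes differed widely between the arrays. Along the block the differences were -0.33, -0.52, 0.50, 0.59, 0.20, -0.44, 0.28 and -0.22, with 4 higher and 4 lower. The lowest, -0.52 at 102330945, was also the lowest of all 32 probes, since the ratio went from 0.01 to -0.51, with a scanner error of 0.30. The highest, 0.59 at 102331347, went from -0.55 to 0.03. The SD of the differences, 0.44, was larger than in 82.9% of blocks, and the upper Pecam1 block was as wide (0.44, 83.3%). Opposite signs thus cancelled in the Itga2b median of -0.01. In the authors' deposited table the median difference was -0.20.

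At Ptprc, the gene of the protein named in the sort of the treated sample, the sign changed once along the block. Counting dim probes too, the first 5 probes by position were all lower after thymidine, by -0.35 to -0.09 with a median of -0.24, and the last 4 all higher, by 0.07 to 0.40 with a median of 0.32. The division was drawn after the values were seen. The scanner error of a single probe's difference had a median of 0.64 in the first part and 0.50 in the second, and 3 of the 9 probes had a dim input. Input signals moved the other way, by 0.22 and -0.25, against -0.08 and 0.03 for the precipitate. In the authors' deposited table the last 4 probes were higher by 0.14 to 0.28, and 1 of the first 5 was higher. That table comes from the same hybridisations, and whether it was smoothed over neighbouring probes is not stated, so it is no separate check of the division. For the 6 kept probes together 3 were higher and 3 lower, and the median of -0.08 became 0.11 with normexp background correction, 0.04 in the authors' deposited table and -0.23 over the 3 probes measured in both channels, so its sign depended on the processing.

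**Figure D3:**
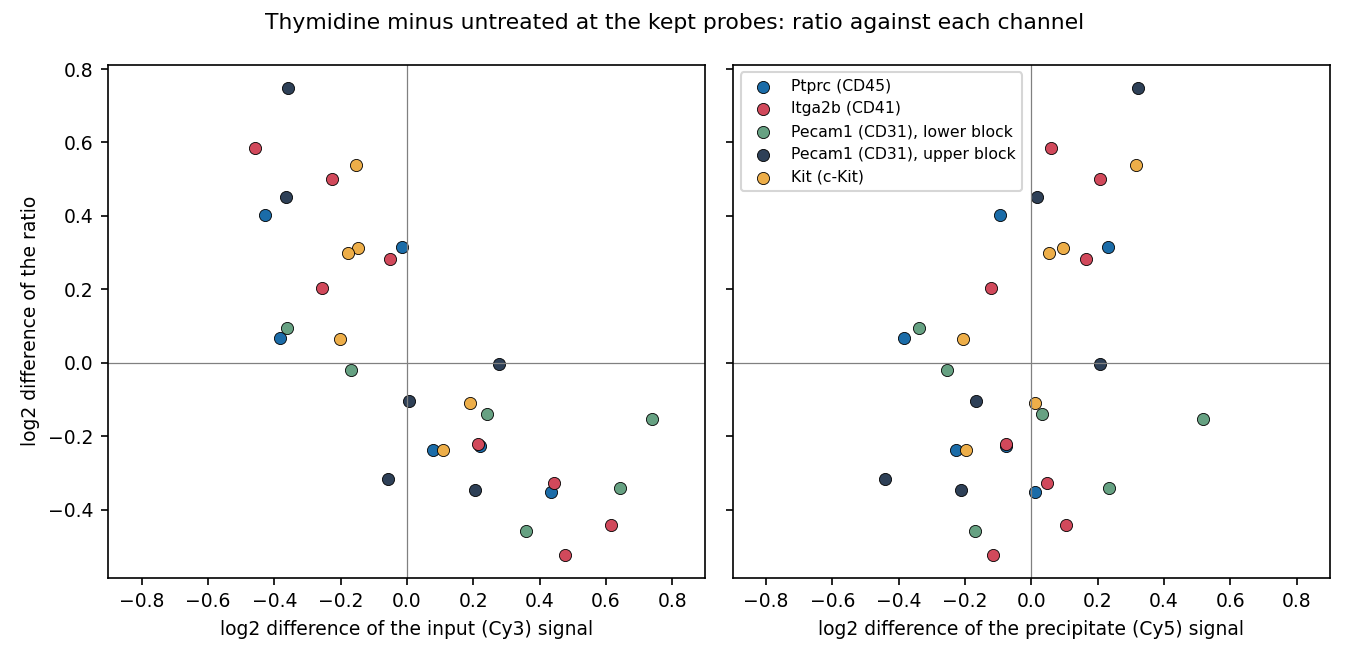
Log2 difference of the ratio, treated minus untreated (vertical), at each of the 32 kept probes against the log2 difference of the input signal (left) and of the precipitate signal (right), each centred on the array, coloured by block. The points fall along a line from upper left to lower right in the input panel (r = -0.79) and are more loosely placed in the precipitate panel (r = 0.36).

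At the 4 genes, as over the whole array, the ratio differences followed the input difference more closely than the precipitate difference. The sign of the difference was opposite to that of the input difference at 30 of 32 probes, against 80.8% over the array. It was that of the precipitate difference at 19 of 32, against 70.4%. The channel differences were centred on their array medians and the ratio difference was not (array median 0.07), so these signs are taken from different zeros. The correlation with the input difference was -0.79 over the 32 probes and -0.79 over the array, and with the precipitate difference 0.36 and 0.59. The input is the denominator of the ratio and shares its error with it, so a negative relation arises in part by construction, and probes of a block share fragments. Whether the input moved through DNA content, labelling or hybridisation was not tested. The arrays correlated at 0.88 over the 32 probes and at 0.93 over all kept probes. The 32 include the low pair of the upper Pecam1 block without a measured precipitate, and the correlation without that pair was not computed. At Itga2b the SD of the differences, 0.44, was larger than that of the ratios on each array (0.36 and 0.33).

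**Figure D4:**
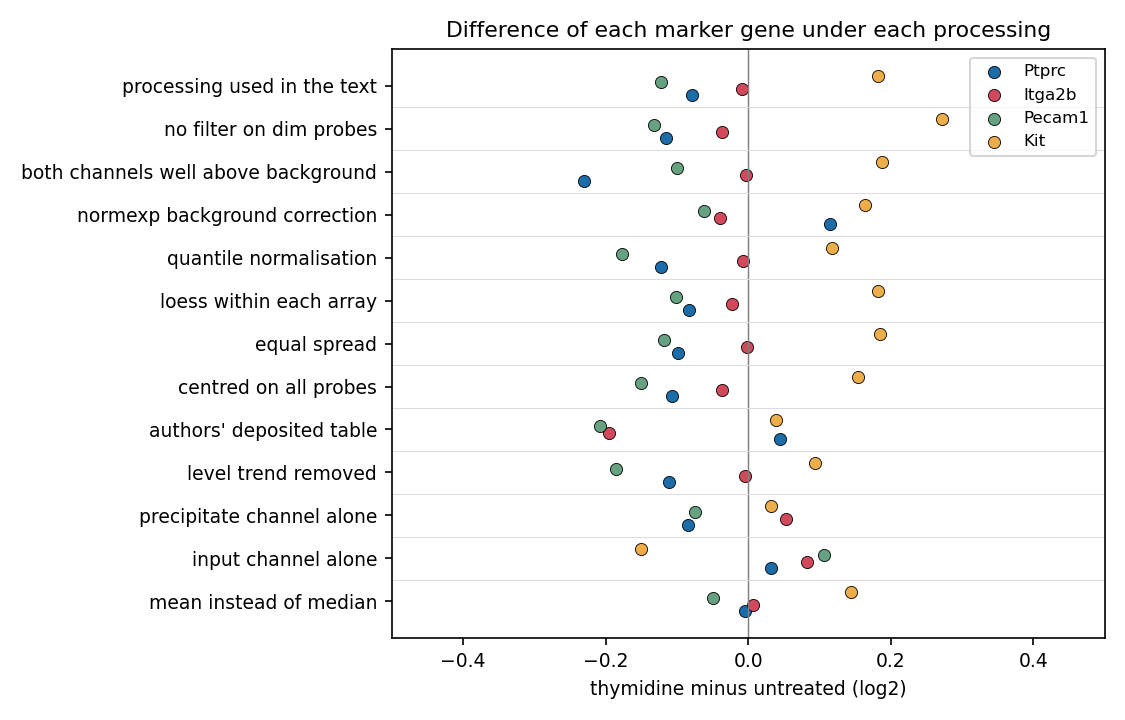
Median difference of each gene, treated minus untreated in log2 units (horizontal), under the processing used in the text and 12 alternatives, each on a line of its own. Kit is above 0 and Pecam1 below 0 on every line other than the input alone, Ptprc lies on both sides, and no value exceeds 0.27 in size.

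The difference was the highest at Kit and the lowest at Pecam1 in all but 2 of the 11 versions of the ratio. In the authors' deposited table Ptprc (0.045) was above Kit (0.040), and with both channels well above background Ptprc (-0.23) was below Pecam1 (-0.10). Kit was positive and Pecam1 negative in all 11, with ranges of 0.04 to 0.27 and -0.21 to -0.05. Itga2b was negative in 10 of 11, from -0.20 to 0.01, and Ptprc negative in 9 of 11, from -0.23 to 0.11. These versions share the same arrays and are no replicates.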

How the data were processed

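MeDIP-chip was performed on 1 array of untreated and 1 of thymidine-treated MEFs, after shearing to fragments of 200 to 1000 bp per the labels' protocols. The scanner software was Agilent Feature Extraction 11.0.1.1 with an mm9 grid, per the file headers. The deposited intensity values are processed signals, corrected for background and, linearly, for dye, together with raw spot medians, per the file headers. The deposited log10 ratios equalled those of the processed signals within 1e-06 at 97.4% and 96.9% of probes, and their log10 errors are the software's own. The authors' deposited table was taken as log2 ratios from its slopes (0.93 and 1.07) against the raw log2 ratios averaged within 300 bp. How it was normalised is not stated, and its column medians were -0.01 and -0.02.

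The log2 of processed Cy5 over Cy3 was then centred on the median of the kept probes of each array, with Python 3.11.15, pandas 2.3.3 and limma 3.58.1 for normexp (offset 50) and loess. Normexp was run on median spot signals in place of the planned mean signals. Of 180465 spots 5827 were controls, and 57 probes had outlier flags. Block counting was tested on simulated data, with differences shuffled over probes and shifts larger than the 0.5 of the rule added to some blocks. Shuffling removes the sharing of fragments within a block, so neither that sharing nor smaller shifts were covered. With 1 array a group no p-value was computed. The number of arrays limits the precision. The members and lists were chosen with earlier results of these data known. All blocks were described, and single probes were named for the highest or lowest ratio or difference of their window, with others chosen after their values were seen. The list of other blood and vessel genes was not analysed here, since no table of the build placed probes in them. Alternatives covered the filter, background, normalisation, centring, level trend, single channels, the mean, a gap of 500 bp and the authors' table.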

Additional observations from a re-analysis of the deposited data

How the results depend on the processing

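Counts of 0 called probes and 0 called blocks did not change under any alternative run (11 settings for probes, 13 for blocks). Of 36 recomputed levels (mean of both arrays' medians) 13 moved by more than the 0.10 that replicate control spots varied by, and of 48 recomputed differences 7 moved by more than the corresponding 0.13. With both channels well above background the level was -0.10 at Ptprc, -0.16 at Itga2b, -0.14 at Pecam1 and 0.19 at Kit, in place of -0.23, -0.02, -0.25 and 0.33. Normexp gave levels of -0.035 at Ptprc and -0.11 at Pecam1, and loess 0.10 and -0.15. Without the filter on dim probes Kit had 0.22, and with the mean Kit had 0.21 and Pecam1 -0.46. The authors' deposited table gave levels of -0.11 at Ptprc and 0.21 at Kit. Differences that moved were those of Ptprc (-0.23 with both channels well above background, 0.11 with normexp), Itga2b (-0.20 in the authors' deposited table) and Kit (0.040 in the authors' deposited table, 0.032 from the precipitate alone and -0.15 from the input alone), and that of Pecam1 from the input alone (0.11). In the setting with both channels, each array was centred anew on probes whose median was higher by 0.15 (untreated) and 0.14 (treated); Itga2b and Kit lost no probe and moved through this centring alone, while Ptprc kept 3 of 6 probes and Pecam1 9 of 12. For the other settings the cause was not tested. No paired analysis was possible because each group has 1 array.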
